A study of Mus musculus with 82 samples.

Results

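Messenger RNA was compared between alcohol-drinking and water-drinking mice in total homogenate of the extended amygdala, that is, in the whole tissue lysate before any fractionation. The comparison used 19 of the series' 82 samples, 8 from alcohol mice and 11 from controls. They were all the arrays in the authors' normalized table of homogenate for these groups, and no measured value entered the choice. The arrays of 2 further controls, which the submitters titled as outliers, are not in that table and were not analysed here.

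All mice were female C57BL/6J, an inbred strain that drinks ethanol readily, and were 2 months old. Alcohol mice had a bottle of 20% ethanol beside a bottle of water for 24 h a day over 30 days, and control mice had water in both bottles. Intake was voluntary, so each mouse set its own dose, and intake per mouse was not used here. Each array holds the RNA of 1 mouse. Levels below are the authors' normalized values on a log2 scale from Illumina mouse BeadChips. A difference of 1 on that scale is a doubling at high signal. At low signal the scale is compressed, so differences and fold bounds of weakly expressed genes are understated.

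The extended amygdala groups the central amygdala, the bed nucleus of the stria terminalis and the tissue between them. Its neurons are mostly inhibitory, carry many neuropeptides, and take part in stress responses, reward and the negative state of alcohol withdrawal. Ethanol acts on GABA and glutamate receptors and other channels there, and is broken down to acetaldehyde and acetate. Total homogenate mixes RNA of cell bodies, nuclei, processes, glia and vessels, so a difference limited to synapses is diluted in it.

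Array quality differed little between the groups. With detection called at p under 0.01, alcohol arrays showed 17509 ± 256 probes (SD, n = 8) and control arrays 17303 ± 340 (SD, n = 11). The difference of 206 was within the spread between mice (p = 0.167 by a two-sided exact permutation test, 0.334 after adjustment for 2 measures). The median signal was 119.1 ± 3.92 in alcohol mice and 118.8 ± 2.37 in controls (exact permutation p = 0.873). Any 2 arrays correlated between 0.988 and 0.996 across the 18318 probes, and the groups overlapped on the first principal component, which held 20.3% of the variance, and on the second, which held 14.6%. Gad1, Sst, Npy and Cck, genes of inhibitory and peptide neurons, were in the table. The single probe for Crh, the stress peptide that marks neurons of this region, was detected on 0 of 19 arrays, so the array gives no level for it. Controls 2, 7 and 13 stood apart in genes of the choroid plexus, the tissue that makes cerebrospinal fluid. Counts without them are given below for all probes and for some of the lists.

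No gene passed the test. Of 18318 probes, 0 (0%) had an adjusted p under 0.05 by limma with Benjamini-Hochberg adjustment, and the smallest adjusted p was 0.999. An unadjusted p under 0.05 was found for 571 probes (3.12%), 283 higher and 288 lower in alcohol mice, where an even spread of p-values would give 916. Without controls 2, 7 and 13 it was found for 880, and again 0 had an adjusted p under 0.05. For 0 probes (0%) did all 8 alcohol mice lie outside the range of the 11 controls. Counted by gene, with the probe of highest level for each of 12916 genes, 198 (1.53%) were higher and 205 (1.59%) lower at an unadjusted p under 0.05. These shares are the background for the gene lists below.

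**Figure D1:**
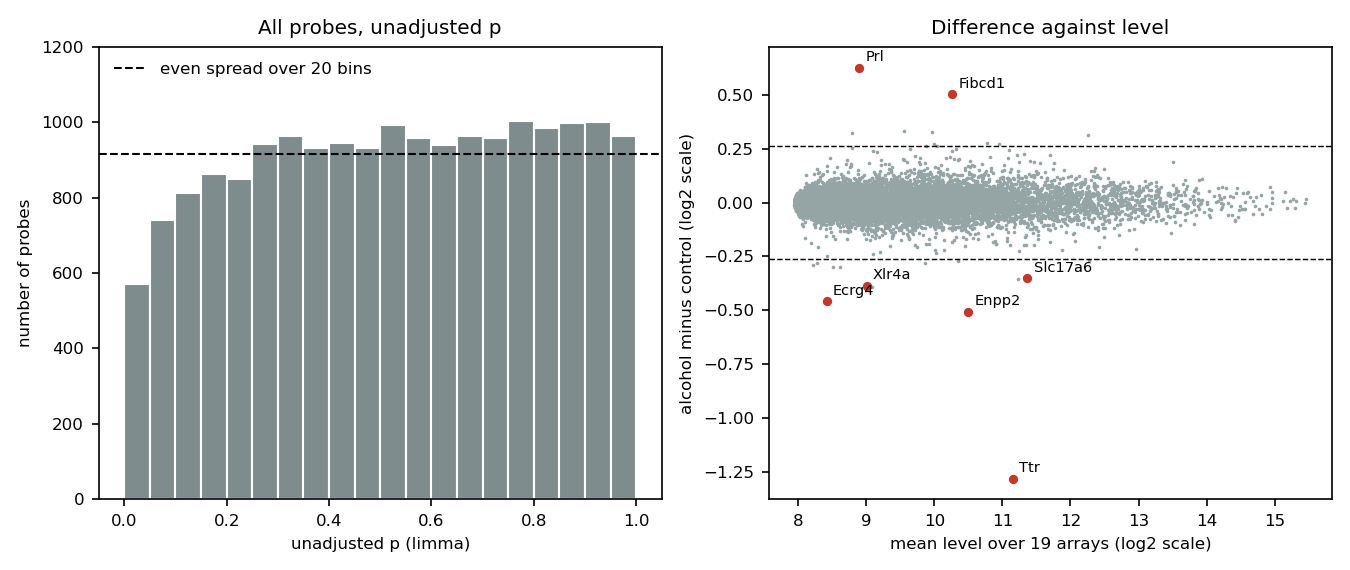
Left, the number of probes in each of 20 bins of unadjusted p, with a dashed line at the height an even spread would give; right, each probe's difference between alcohol and control mice against its mean level over 19 arrays, both on the log2 scale, with dashed lines at 1.2-fold. The lowest bin holds 571 probes, below the line, and Ttr at -1.28 is the only probe past 2-fold.

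The differences were small. The median size of a difference was 0.021 on the log2 scale, and 95% of probes differed by less than 0.088. The 95% interval of the difference lay within 1.5-fold in either direction for 99.8% of probes, and within 1.2-fold for 96.3%. The authors' scale is compressed at low signal, and on the log2 of the bead signals the share within 1.2-fold was 91.4%. For 33 probes the interval reached past 1.5-fold, so a change of that size is not bounded for them. They include Ttr, Prl, Avp, Oxt, Trh, Rgs9, Fibcd1 and both probes of Slc17a6, genes that varied widely between mice of the same group.

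Only 24 probes, of 22 genes, differed by more than 1.2-fold, and 4 of those had an unadjusted p under 0.05. These 4 were chosen for mention after their values were seen, and all were lower in alcohol mice. Xlr4a, a gene of an X-linked lymphocyte-regulated family, differed by -0.39 ± 0.14 (SE, p = 0.0129). Dnajc7, a co-chaperone of heat shock proteins, differed by -0.28 ± 0.11. Chmp4b, a subunit of the membrane-remodelling ESCRT machinery, differed by -0.27 ± 0.095, and Ppp3r1, the regulatory subunit of calcineurin, by -0.27 ± 0.097. All adjusted p-values were 0.999.

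Among the genes that lay higher in alcohol mice, the smallest p belonged to Zfand3, a zinc finger gene that the array lists as Tex27. Its level ran from 11.09 to 11.34 in alcohol mice (median 11.21) and from 10.97 to 11.18 in controls (median 11.03). All 8 alcohol mice lay above the control median, but the ranges overlapped. The difference was 0.16 ± 0.034 (SE, p = 0.000173, adjusted p = 0.999 by limma). Med23, a subunit of the Mediator complex that links transcription factors to RNA polymerase, differed by 0.11 ± 0.027, from a control median of 9.38 to an alcohol median of 9.47. Another Med23 probe stood at -0.016. Nbl1, a secreted antagonist of bone morphogenetic proteins, had medians of 9.90 in alcohol mice and 9.67 in controls. Its difference was 0.18 ± 0.049, with all 8 alcohol mice above the control median, and its other probe stood at 0.020.

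Several of the next genes act at the cell surface or in the matrix outside it. Tgm2, the tissue transglutaminase that cross-links proteins, differed by 0.18 ± 0.054. Htra1, a secreted serine protease, differed by 0.20 ± 0.063, and its other probe by 0.11. Lamb2, a laminin chain of basement membranes, differed by 0.10 ± 0.032. Adgre5, an adhesion receptor also called CD97, differed by 0.096 ± 0.026 on the authors' scale and by 0.18 on the log2 of its signal, one of the weakly expressed genes for which the compression matters. Its 3 probes ran down to -0.027. Tln2, a talin that ties integrins to actin, differed by 0.057 ± 0.017, and both its probes stood close together at 0.055 and 0.057. Ccm2, a scaffold that vessels need for stable junctions, differed by 0.085 ± 0.026. The other genes among the 15 of smallest p were Akap1, Dhrs7, Limd1, Armcx2, Swap70 and Glrx2, with differences from 0.085 to 0.19. Swap70 and Glrx2 also had probes just below 0, at -0.0082 and -0.0047. These genes were picked by their p, so no theme was tested for them.

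Among the genes that lay lower, Myl6, a light chain of non-muscle myosin, had the smallest p. Its level ran from 11.60 to 11.96 in alcohol mice (median 11.73) and from 11.82 to 12.17 in controls (median 11.94). Of the 8 alcohol mice, 7 lay below the control median. The difference was -0.22 ± 0.051 (SE, p = 0.000351, adjusted p = 0.999), and the gene's other probes lay between that value and -0.047. Arpc3, a subunit of the complex that nucleates branched actin filaments, had medians of 11.21 and 11.42 and differed by -0.20 ± 0.052, with 0 of 8 alcohol mice above the control median. Serbp1, an RNA-binding protein found on idle ribosomes, differed by -0.12 ± 0.030, with its other probes at up to 0.0024.

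**Figure D2:**
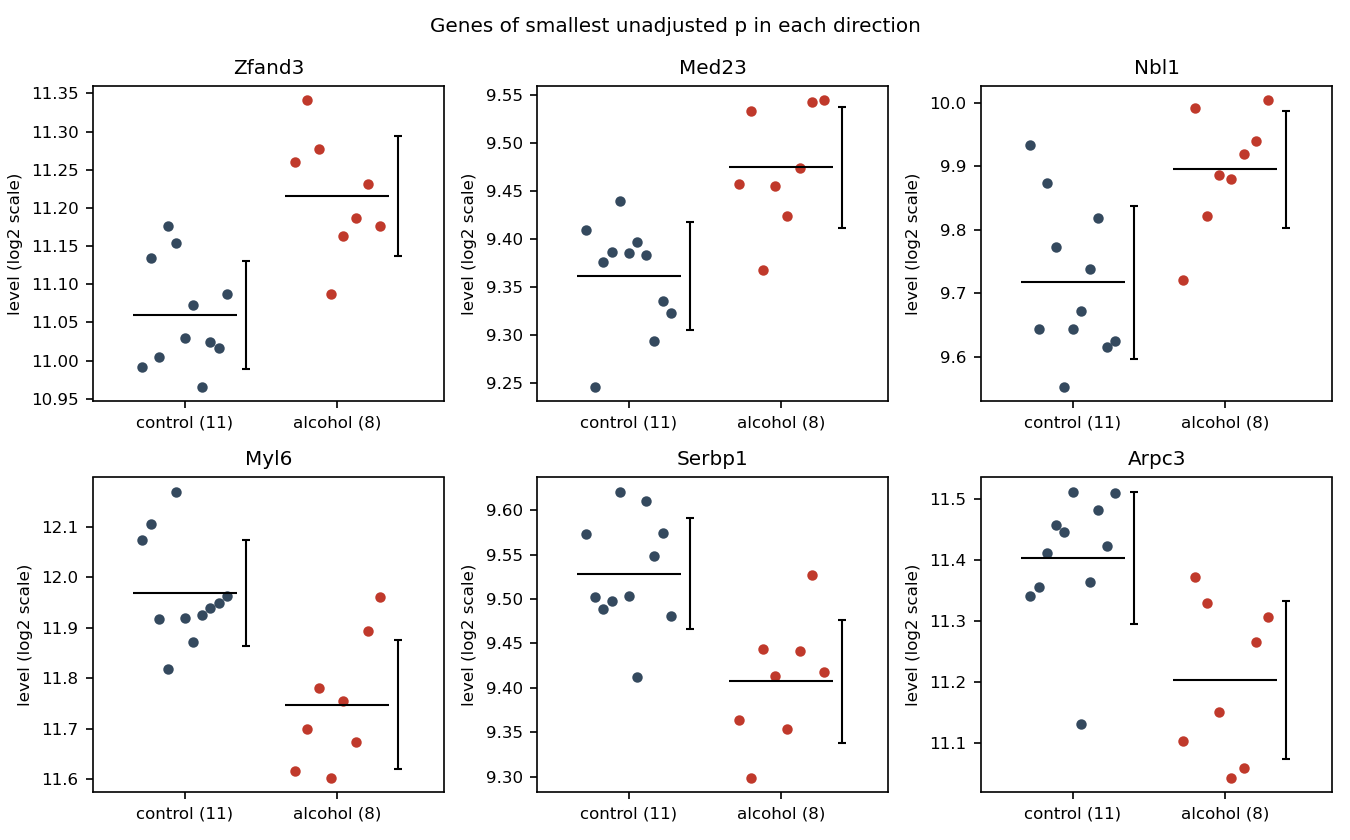
Level of each mouse on the log2 scale for the 3 genes of smallest unadjusted p in each direction; horizontal lines are group means and bars 1 SD. Zfand3, Med23 and Nbl1 lie higher in alcohol mice by 0.11 to 0.18 and Myl6, Serbp1 and Arpc3 lower by 0.12 to 0.22, with the ranges of the groups overlapping in every panel.

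The other leading lower genes have varied roles, and since they were picked by their p no theme was tested. Naca, which shields nascent chains at the ribosome, differed by -0.11 ± 0.035, and its 3 probes all lay below 0, from -0.20 to -0.057. Psmg2, a chaperone of proteasome assembly listed as Tnfsf5ip1, differed by -0.083 ± 0.025. Scg5, the chaperone of a prohormone convertase in peptide-secreting neurons, differed by -0.13 ± 0.042. Polr2g, a subunit of RNA polymerase II, differed by -0.20 ± 0.067, with 0 of 8 alcohol mice above the control median. Bax, which opens the mitochondrial membrane in apoptosis, had medians of 8.38 and 8.55 and differed by -0.14 ± 0.038. Hat1, which acetylates new histones, differed by -0.11 ± 0.031, and Arl1, a GTPase of the trans-Golgi, by -0.15 ± 0.044. Mad2l1, Cabyr, Ggnbp2, Rassf1 and Znhit3 made up the rest of the 15, with differences from -0.10 to -0.041. Rassf1 also had a probe on the other side, at 0.010.

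Genes of interest for alcohol, stress and cell identity gave the same picture. The neuropeptide genes came first. Npy, whose peptide dampens anxiety and drinking in rodents, ran from 10.60 to 11.33 in alcohol mice (median 11.09) and from 10.96 to 11.57 in controls (median 11.13), a difference of -0.076 ± 0.090 (SE, p = 0.406). Sst, the somatostatin precursor, had a median of 12.52 in each group and differed by -0.085 ± 0.076. Penk, the enkephalin precursor, stood at 0.003 ± 0.058, and its sign turned when the signals were normalized in other ways. Pdyn, the dynorphin precursor, varied from 9.19 to 10.81 in alcohol mice and from 9.35 to 10.62 in controls, so its difference of -0.026 ± 0.23 had a 95% interval from -0.51 to 0.46. Cck, cholecystokinin, lay lower in 7 of 8 alcohol mice than the control median, with a difference of -0.14 ± 0.078 (p = 0.0938).

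The genes that handle ethanol and its products differed little. Aldh2, the mitochondrial enzyme that clears acetaldehyde, had medians of 10.72 in alcohol mice and 10.81 in controls, a difference of -0.052 ± 0.080. Cat, catalase, which oxidizes ethanol in brain, differed by 0.054 ± 0.034, and Adh5, an alcohol dehydrogenase, by -0.014 ± 0.040. Of the 11 measured genes of ethanol and acetate metabolism, 0 had an unadjusted p under 0.05, 6 lay above 0 and the median was 0.0027. The 95% interval lay within 1.5-fold for all 11 on the authors' scale. That scale understates differences of weakly expressed members such as Cat. Acss2, of the genes of interest, has no probe on the array under that name.

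Genes driven by stress hormones and activity also differed by less than the spread between mice. Fkbp5, a co-chaperone induced through the glucocorticoid receptor, had medians of 8.59 and 8.62 and differed by -0.010 ± 0.037. Sgk1 and Tsc22d3, likewise induced by glucocorticoids, differed by 0.055 ± 0.092 and 0.006 ± 0.089. Egr1, an immediate early gene of active neurons, ran from 11.69 to 12.21 in alcohol mice and from 11.57 to 12.65 in controls, a difference of -0.14 ± 0.13. Fos stood at -0.039 ± 0.080 and Bdnf, a neurotrophin, at -0.077 ± 0.065. The clock genes Per1 and Dbp stood at 0.053 ± 0.053 and 0.044 ± 0.10. The 95% intervals of these 8 genes all lay within 1.5-fold on the authors' scale, which understates differences of weakly expressed genes such as Fos.

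**Figure D3:**
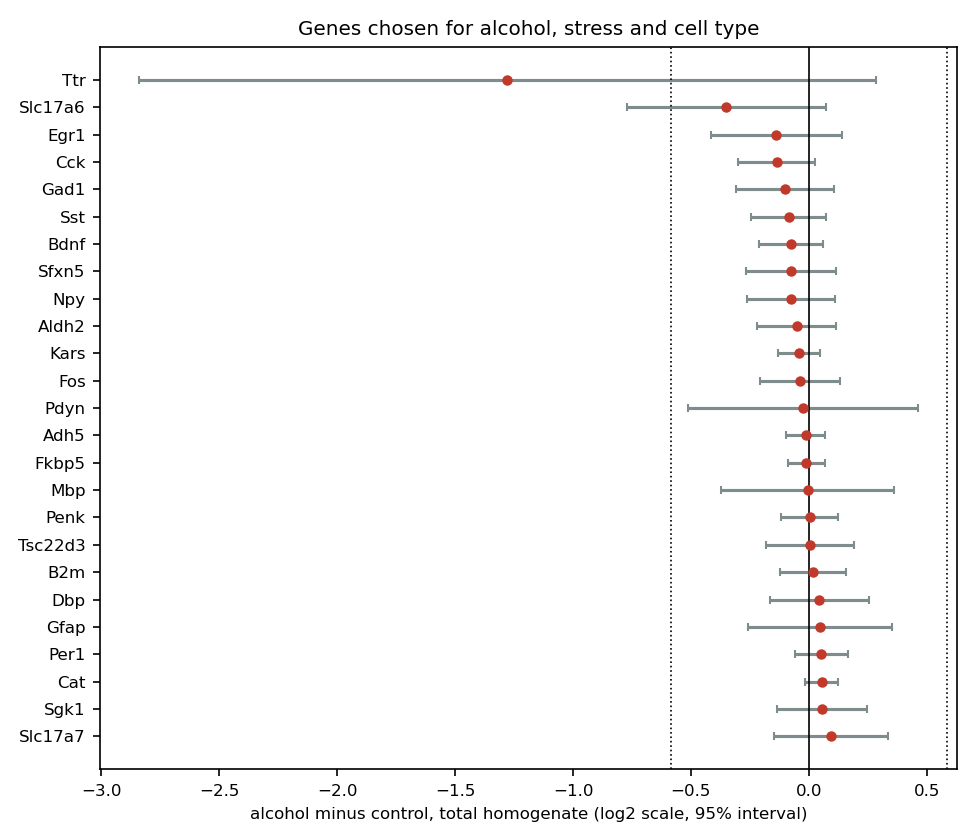
Difference between alcohol and control mice with its 95% interval, on the log2 scale, for 25 genes chosen for alcohol, stress and cell type; dotted lines mark 1.5-fold. Every interval crosses 0, and those of Ttr and Slc17a6 reach past the lower dotted line.

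Transmitter genes differed within the spread of the mice. Slc17a6, the vesicular glutamate transporter of thalamic, hypothalamic and some amygdala neurons, ran from 10.30 to 11.73 in alcohol mice (median 11.24) and from 10.58 to 12.09 in controls (median 11.47). The groups overlapped almost fully, and the difference was -0.35 ± 0.20 (SE, p = 0.0989), with its other probe at -0.35. Slc17a7, the transporter of cortical and basolateral amygdala neurons, stood at 0.092 ± 0.12, and Gad1, the enzyme that makes GABA, at -0.10 ± 0.099. Of 17 glutamate receptor and transporter genes, 1 was higher at an unadjusted p under 0.05. It was Grm5, a postsynaptic metabotropic receptor, with medians of 9.88 and 9.59 and a difference of 0.22 ± 0.085 (p = 0.0200). Of 18 GABA genes measured, 0 reached that level in either direction, and their median was 0.0055. Gabra2 was not among them, as its single probe was detected on 1 of 19 arrays.

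The 32 gene lists are given by counts and medians beside those of all genes, for which 49.1% lay above 0 with a median of -0.0006. In 0 of the lists did a member pass the adjusted threshold. The counts below are at an unadjusted p under 0.05, against backgrounds of 1.53% higher and 1.59% lower. Lists with a count of 0 in a direction had at most 1 such member when any single mouse was left out, except the choroid plexus list, with 2 lower without control 10.

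**Figure D4:**
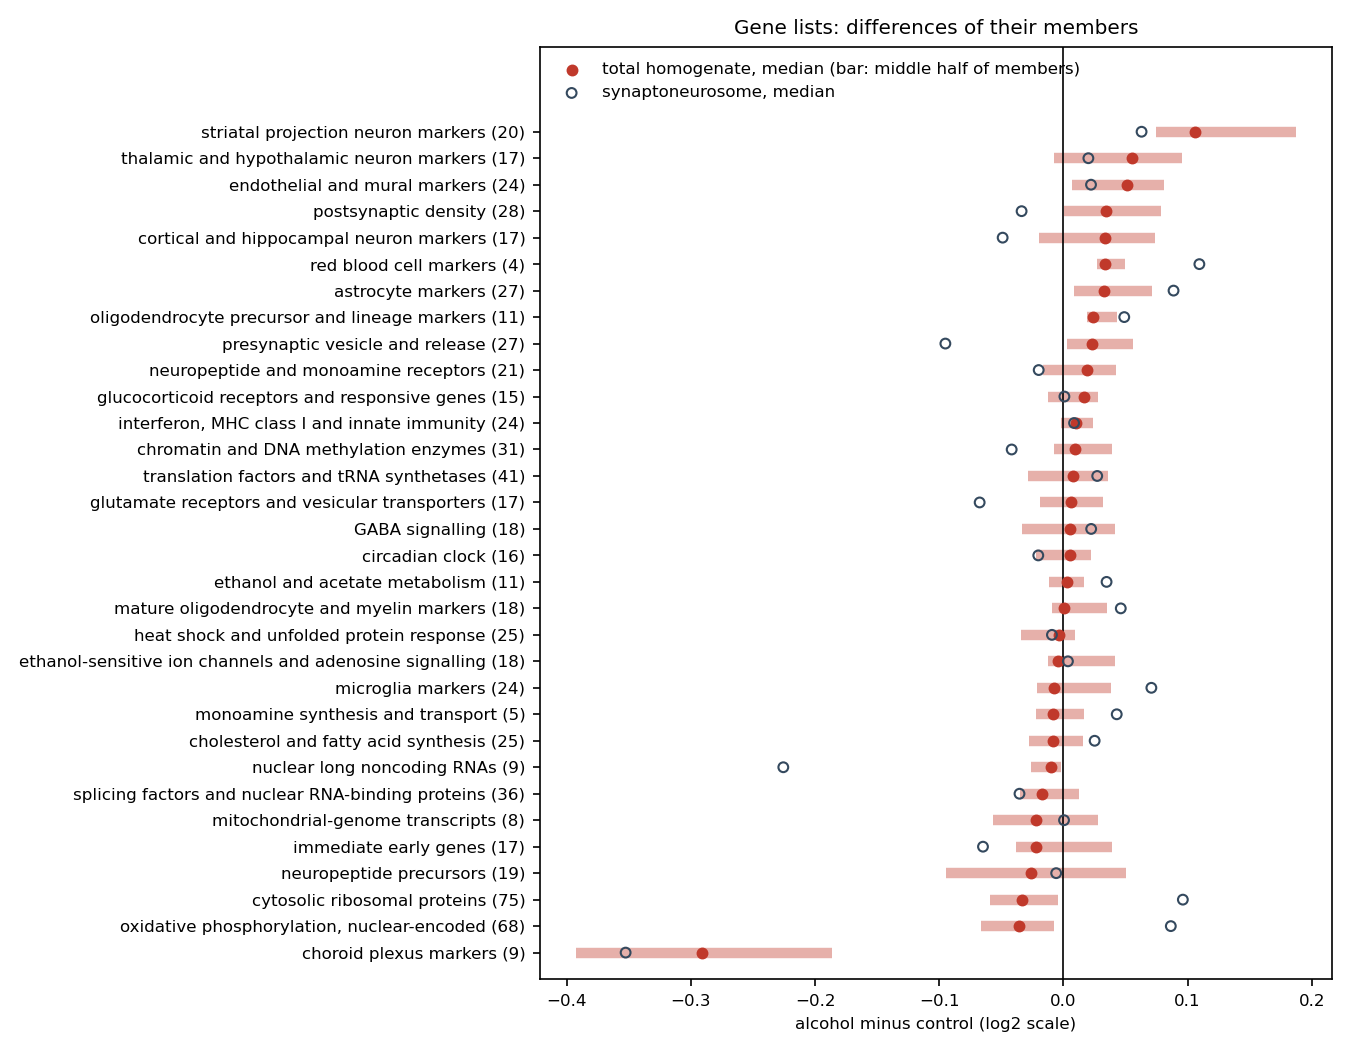
Median difference between alcohol and control mice over the members of 32 gene lists, on the log2 scale, with the number of members measured; filled points are total homogenate, bars run from the lower to the upper quartile of its members and open points are the synaptoneurosome medians. In homogenate 31 of the medians lie between -0.036 and 0.11, and the choroid plexus list stands at -0.29.

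Vascular genes held the largest share of higher members. Of 24 endothelial and mural markers, 4 were higher and 0 lower, 18 lay above 0 and the median was 0.051. Vwf, the clotting factor stored by endothelium, ran from 8.64 to 9.20 in alcohol mice (median 8.99) and from 8.46 to 9.35 in controls (median 8.60). All 8 alcohol mice lay above the control median, while control 10 had the highest value of all, and the difference was 0.25 ± 0.099 (p = 0.0196). Flt1, a receptor for vascular endothelial growth factor, differed by 0.24 ± 0.090. Vtn, vitronectin, which pericytes make in brain, differed by 0.20 ± 0.073, and Cdh5, the cadherin of endothelial junctions, by 0.072 ± 0.026. Cldn5, the tight junction claudin, stood on the other side at -0.084. The count was 7 without control 10 and 7 without alcohol mouse 7. In whole tissue, more cells of a type and more RNA per cell cannot be told apart.

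Astrocyte markers also lay mostly above 0. Of 27 astrocyte markers, 2 were higher, 22 lay above 0 and the median was 0.033. The 2 were Gja1, the main astrocyte gap junction protein, at 0.11 ± 0.049, and Vim, an intermediate filament, at 0.089 ± 0.038. The count was 0 without alcohol mouse 6, and 1 without alcohol mouse 8, control 4 or control 6. Without controls 2, 7 and 13 together it was 1, and 18 of 27 lay above 0 with a median of 0.022. Gfap, the filament of reactive astrocytes, stood at 0.046 ± 0.15. Of 11 oligodendrocyte precursor and lineage genes, 10 lay above 0 and 0 had an unadjusted p under 0.05. Among 18 myelin and mature oligodendrocyte genes the median was 0.0009, and Mbp, myelin basic protein, stood at -0.005 ± 0.17. The score of the myelin list, the median of its members' deviations from the control means in each mouse, ran from -0.35 to 0.40 in alcohol mice and from -0.58 to 0.65 in controls.

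Immune lists had medians near 0. Of 24 microglia markers, 0 had an unadjusted p under 0.05, 11 lay above 0 and the median was -0.0074. Laptm5, a lysosomal protein of myeloid cells, stood at 0.11 ± 0.061. Of 24 genes of interferon response, MHC class I and innate signalling, 2 were higher and the median was 0.010. They were Nfkbia, the inhibitor that NF-kappaB itself induces, with medians of 8.64 and 8.58 and a difference of 0.089 ± 0.029, and Irf9, a subunit of the interferon-activated transcription factor, at 0.052 ± 0.020. The count was 1 without alcohol mouse 6 and 3 without alcohol mouse 7 or control 7. B2m, the light chain of MHC class I, stood at 0.017 ± 0.067. The 4 red blood cell markers had a median of 0.034 and ranged widely between mice, with scores from -0.54 to 0.48 in alcohol mice.

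Synaptic lists lay slightly above 0. Of 28 postsynaptic density genes, 2 were higher and 22 lay above 0, with a median of 0.035. Dlgap3, a scaffold of corticostriatal synapses, differed by 0.078 ± 0.029, with all 8 alcohol mice above the control median, and Homer2, which binds group I metabotropic receptors, by 0.17 ± 0.080. The count was 1 without alcohol mouse 3, 4 or 7 or control 1, 3, 5, 9 or 10. Ddn, dendrin, stood at 0.19 ± 0.096 (p = 0.0681). Of 27 presynaptic genes, 1 was higher, Syt11 at 0.066 ± 0.029, and 21 lay above 0 with a median of 0.023. The presynaptic count was 0 without alcohol mouse 1, 2, 4 or 8 or control 5 or 9, and 2 without alcohol mouse 3 or 7 or control 3 or 10. Cplx2, a complexin that clamps vesicle fusion, had medians of 10.91 and 10.69, and although all 8 alcohol mice lay above the control median its difference was 0.21 ± 0.16, with controls spread from 9.88 to 11.41.

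Peptide precursors had a median slightly below 0, and receptors, channels and monoamine genes had medians near 0. Of 19 neuropeptide precursors, 8 lay above 0 and the median was -0.026, or -0.079 on the log2 of the signals. At an unadjusted p under 0.05, 1 precursor was lower. It was Adcyap1, the precursor of the stress peptide PACAP, whose level ran from 8.70 to 9.20 in alcohol mice (median 8.94) and from 8.98 to 9.71 in controls (median 9.14). The difference was -0.24 ± 0.089 (p = 0.0150), with 7 of 8 alcohol mice below the control median. The list's count was 3 without control 13 and 2 without alcohol mouse 1 or 5 or control 9, and its median was 0.0091 without control 5. Of 21 neuropeptide and monoamine receptors, 18 ethanol-sensitive channel and adenosine genes and 5 monoamine genes, 0 had an unadjusted p under 0.05, with medians of 0.019, -0.0044 and -0.0080. Hcn2, a pacemaker channel, stood at 0.14 ± 0.10, and Glra2, a glycine receptor subunit, at -0.12 ± 0.088.

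Nuclear-encoded oxidative phosphorylation genes and ribosomal protein genes lay mostly below 0. Of 68 nuclear-encoded oxidative phosphorylation genes, 7 were lower and 0 higher, 55 lay below 0 and the median was -0.036. Ndufs4, a subunit of the first respiratory complex, had medians of 11.01 in alcohol mice and 11.11 in controls and differed by -0.16 ± 0.063. Ndufa11 and Ndufa7, of the same complex, differed by -0.12 ± 0.047 and -0.11 ± 0.043, and Atp5j2, a subunit of the ATP synthase, by -0.14 ± 0.052. Each of these 4 lay below the control median in 6 or 7 of 8 alcohol mice. The count was 3 without alcohol mouse 4 and 11 without control 9, fits whose own share over all genes is not given here. All members were measured in the same mice, so these counts do not treat mice as the unit. The list's score ran from -0.15 to 0.052 in alcohol mice and from -0.088 to 0.095 in controls. The 8 transcripts of the mitochondrial genome split 4 and 4, with a median of -0.022.

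Of 75 cytosolic ribosomal protein genes, 2 were lower, 59 lay below 0 and the median was -0.033. Rps16 differed by -0.11 ± 0.046 and Rpl19 by -0.065 ± 0.030, with 6 of 8 alcohol mice below the control median for Rps16 and 7 of 8 for Rpl19. The count of lower members was 6 without alcohol mouse 8, 5 without control 7 and 4 without control 9. It was 1 without alcohol mouse 4, 5 or 7 or control 1, 3, 5 or 6. The list's score ran from -0.14 to 0.031 in alcohol mice (median -0.011) and from -0.13 to 0.063 in controls (median -0.0020). Translation factors and tRNA synthetases, 41 in all, held 0 members at an unadjusted p under 0.05 and a median of 0.0080. Kars, the lysyl-tRNA synthetase, stood at -0.041 ± 0.042. All intervals of these oxidative phosphorylation, ribosomal and translation genes lay within 1.5-fold on the authors' scale.

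Apart from the choroid plexus list and the neuron lists of brain regions, which are given below, the remaining lists held 1 member at that level. It was Hdac5, a class II histone deacetylase, at 0.14 ± 0.059, with 19 of 31 chromatin genes above 0. That count was 0 without alcohol mouse 1, 6 or 7 or control 7 or 9, and 2 without alcohol mouse 5 or control 8. Medians were -0.022 for 17 immediate early genes, 0.017 for 15 glucocorticoid-responsive genes and 0.0050 for 16 clock genes. They were -0.0037 for 25 chaperone and unfolded protein response genes, -0.0084 for 25 sterol and fatty acid genes, -0.017 for 36 splicing genes and -0.010 for 9 nuclear noncoding RNAs.

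The 15 genes that varied most within groups included several known from choroid plexus, striatum, hypothalamus and pituitary, beside others such as Pdyn, Trbv14 and Erdr1. They were ranked after the data had been seen, and their spread is described without a test. Ttr, the transthyretin that choroid plexus secretes into cerebrospinal fluid, stood at 14.75, 14.03 and 14.38 in controls 2, 7 and 13 and between 8.85 and 12.93 in the other 8 controls. Alcohol mice lay between 9.14 and 11.57, so the 3 highest arrays were all controls. Enpp2 and Clic6, also strongly expressed in choroid plexus, were highest in the same 3 controls, at 12.50, 11.57 and 12.17 and at 10.87, 9.84 and 10.27. Of the 9 choroid plexus markers measured, 7 lay below 0 and the median was -0.29. The list's score ran from -0.34 to -0.18 in alcohol mice, with an SD of 0.054, and from -0.45 to 1.18 in controls, with an SD of 0.52. With those 3 controls left out, an alternative chosen after seeing the data, the median was -0.0051 and 4 of 9 lay above 0. Leaving them out gave 9 lower oxidative phosphorylation genes, 6 lower ribosomal protein genes and 4 higher vascular genes, against 261 genes higher and 366 lower of all 12916. Ttr itself differed by -1.28 ± 0.75 (SE, p = 0.103) over all 19 arrays.

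Striatal genes varied along another set of mice. Rgs9, the regulator of G protein signalling of striatal neurons, was 11.75, 10.82 and 10.63 in alcohol mice 8, 1 and 6 and 10.88 and 10.46 in controls 10 and 9. The other mice lay between 9.14 and 10.07. Scn4b, a sodium channel subunit of the same neurons, was highest in the same 5 mice, from 9.18 to 10.57, and at most 8.89 in the others. Of 20 striatal projection neuron markers, 19 lay above 0 and the median was 0.11, and 1 had an unadjusted p under 0.05. That was Gng7, a G protein subunit coupled to dopamine receptors, with medians of 11.38 and 11.23 and a difference of 0.22 ± 0.076 (p = 0.00874). The count was 2 without alcohol mouse 1, 5, 6 or 7 or control 7, 8, 10 or 13. The list's score reached 0.71 in alcohol mouse 8, and without that mouse the list's median was 0.037 and 15 of 20 lay above 0.

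**Figure D5:**
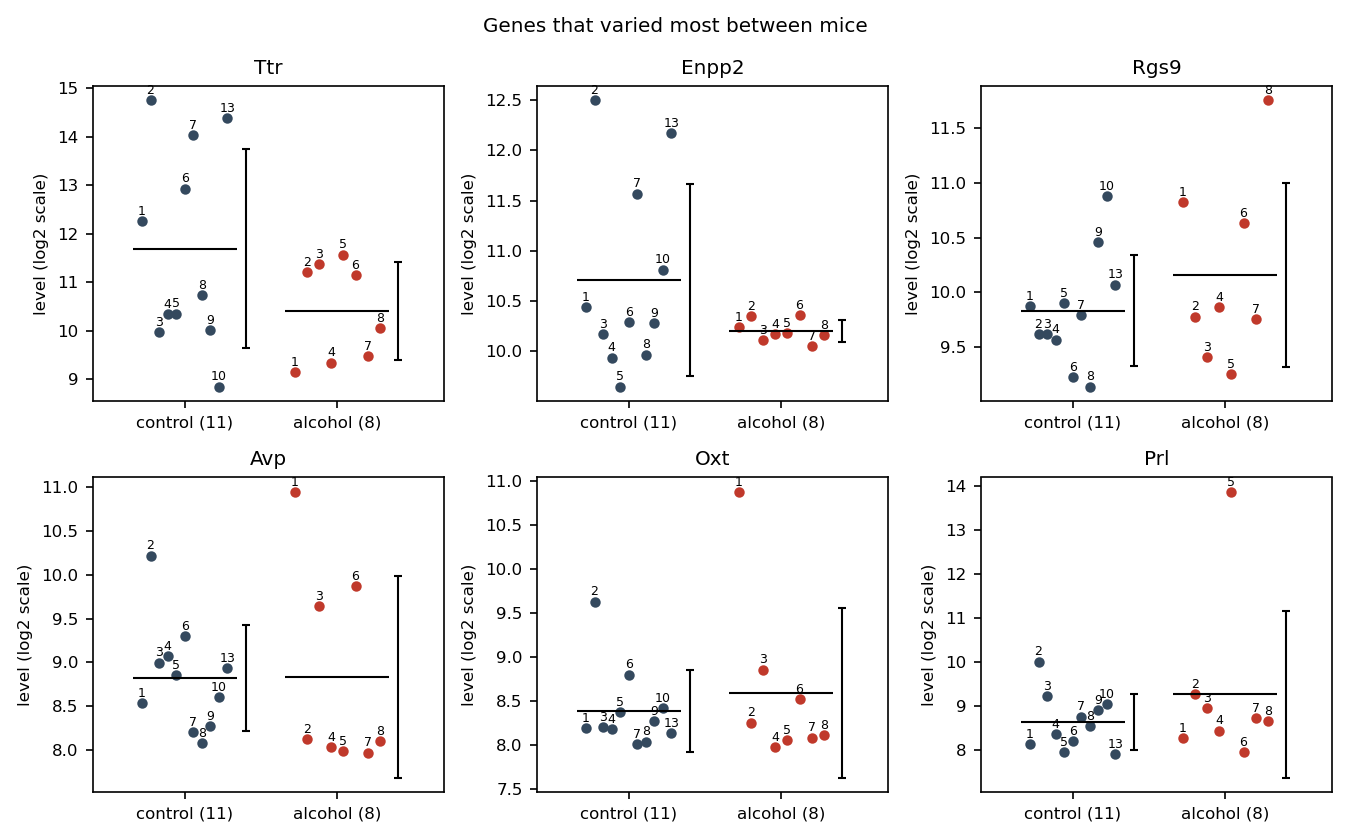
Level of each mouse, numbered as in the labels, on the log2 scale for 6 of the genes that varied most between mice; horizontal lines are group means and bars 1 SD. Ttr and Enpp2 are highest in controls 2, 7 and 13, Rgs9 in alcohol mouse 8, Avp and Oxt in alcohol mouse 1 and Prl in alcohol mouse 5.

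Hormone genes stood out in single mice. Avp and Oxt, the vasopressin and oxytocin precursors of hypothalamic neurons, were 10.95 and 10.88 in alcohol mouse 1. In the other 18 mice Avp lay between 7.97 and 10.22 and Oxt between 7.98 and 9.63, with control 2 the next highest in both. Prl, prolactin, a pituitary hormone, was 13.87 in alcohol mouse 5 and between 7.91 and 10.01 elsewhere. Fibcd1, which marks hippocampal pyramidal cells in mouse, ranged from 9.20 to 11.54 in alcohol mice and from 8.98 to 11.18 in controls. Dcn, decorin, a matrix proteoglycan of meninges and vessels, ranged from 9.41 to 11.95 and from 9.47 to 12.23. Thalamic and hypothalamic markers as a list had a median of 0.055 with 0 of 17 members at an unadjusted p under 0.05, and cortical and hippocampal markers a median of 0.034 with 1 of 17, Rspo2 at 0.074 ± 0.033. That count was 0 without alcohol mouse 3, 5, 6 or 7 or control 1, 2, 10 or 13, and 2 without alcohol mouse 4 or control 7 or 8. The part of dissection or of any treatment in these values was not tested.

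Synaptoneurosomes of the same mice, a filtered fraction enriched in synaptic endings, offer the nearest comparison, with values from their own normalized table of 8 alcohol and 13 control arrays. There too 0 of 17514 probes (0%) had an adjusted p under 0.05, with 1878 at an unadjusted p under 0.05. The difference between the alcohol effects in the 2 fractions was tested on each mouse's own difference between them, and for 0 of 17265 probes (0%) was the adjusted p under 0.05. The smallest was 0.312, and 2119 had an unadjusted p under 0.05, where 863 would be expected from an even spread.

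The genes at that smallest adjusted p included Myl6, at -0.22 in homogenate and 0.17 in synaptoneurosomes, and Arpc3, at -0.20 and 0.14. Grm5 stood at 0.22 and -0.25, and Kars at -0.041 and 0.20, likewise at an adjusted p of 0.312. Oxidative phosphorylation genes had medians of -0.036 in homogenate and 0.087 in synaptoneurosomes, each from that fraction's own normalization. By the test of the difference, on signals normalized jointly, 24 of 68 had a higher alcohol effect in synaptoneurosomes at an unadjusted p under 0.05. Among all 12266 genes tested 6.11% had a higher effect there, and 6.45% a lower one. Ribosomal protein genes had medians of -0.033 and 0.096, with 30 of 75 higher and 1 lower, and 5 of 24 microglia markers were higher. Presynaptic genes went the other way, with medians of 0.023 and -0.095 and 9 of 26 lower and 0 higher. The postsynaptic density list, with medians of 0.035 and -0.034, had 3 of 28 lower and 0 higher. Aldh2 stood at -0.052 and 0.21 (adjusted p of the difference 0.349) and Sfxn5, a mitochondrial carrier, at -0.077 and 0.34 (0.346). Members of a list were measured in the same mice, so these counts do not treat mice as the unit. The unadjusted count over all probes ran from 1533 to 2904 without 1 mouse, and no such range is given for the lists. None of these differences passed the threshold, so none is shown to be particular to a fraction.

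A further 26963 probes of the array are not in the authors' normalized values. Of these, 2 were detected in at least 7 of 8 alcohol arrays and at most 2 of 11 control arrays, those of BC032265 and of Ptk7, a receptor-like pseudokinase, each in 7 alcohol arrays and 1 control array. In the reverse direction, with at least 10 of 11 control and at most 1 of 8 alcohol arrays, there were 0. On log2 signals without a filter they differed by 0.073 ± 0.020 and 0.064 ± 0.024 (SE), with adjusted p of 1.00 by limma.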

How the data were processed

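Per the file headers, the deposited signal table holds the average bead intensity of 45281 probes and a detection p-value for each probe and array, and whether background was subtracted is not given in the sources used here. The authors' normalized log2-scale values, made with lumi per the submitters' processing notes (transform and version not given in the sources used here), were used as deposited. Checked against the signals, the 18318 probes they cover are those with a detection p under 0.05 on at least 80% of the 19 arrays.

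Alcohol and control were compared with limma 3.58.1 in R 4.3.3 (lmFit, eBayes, two-sided, Benjamini-Hochberg over all probes), with 8 against 11 arrays and no block. The test was tried on simulated data. Files were read with the R package data.table (version 1.17.8), and tables and figures were made with Python 3.11.15, pandas 2.3.3, scipy 1.17.1 and matplotlib 3.10.9. Errors beside differences are limma's standard errors. Of 13555 array symbols, 11362 were current or updated through a list of gene names, and a gene is its probe of highest mean level unless it was picked by its smallest p.

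Named were the 15 genes of smallest p in each direction (2 and 7 clone names were passed over), up to 4 members of smallest p in each of 32 lists, and a set of 28 genes of interest. Crh, Gabra2 and Acss2 of that set have no level here. Further members were named for standing at an end of their list. The genes and lists were chosen with earlier results of these data known. Gene lists were described, not tested. The values of 1 gene are not reported here. The difference between fractions used log2 signals normalized across both fractions, in the 19 mice with both. The number of arrays limits the precision. Alternatives were another normalization, background correction and filter, a trend, array weights, a replicate block and leaving out each mouse.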

Additional observations from a re-analysis of the deposited data

Results flagged for a closer look

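In 18 of 220 sets of 8 alcohol values, 1 mouse lay far from the other 7 by Dixon's test. By chance it would pick out about 1 in 20 sets that are independent and not chosen by their values. The sets were the named and most variable genes, the list scores and 2 array measures. The most variable genes, with Prl, Oxt and Trbv14, were picked for their spread in these same mice. List scores also share genes with the named set, so that rate cannot be used to judge the 18. Levels are on the log2 scale.

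Hormone and immune receptor genes had the widest gaps. Prl was 13.87 in alcohol mouse 5 against at most 9.274 in the others. Oxt was 10.88 in mouse 1 against at most 8.859, and Trbv14, a T cell receptor segment, was 9.326 in mouse 2 against at most 8.291. Mouse 1 was also highest for Ddc, the enzyme that makes dopamine and serotonin, at 8.952 against at most 8.581, and for Prlr at 8.776 against at most 8.507. It was lowest for Ddn at 13.06, where the others began at 13.45. Mouse 8 was highest for Penk at 8.721 against at most 8.435, for Hif3a at 8.394 against at most 8.218 and for Hdac6 at 8.507 against at most 8.403. Mouse 4 was lowest for Rps16 at 11.57, where the others began at 11.75, and highest for Rbfox1 at 12.95 against at most 12.84. Eprs was 8.569 in mouse 3 against at most 8.493, and Nlgn1 was lowest at 8.025 in mouse 7, with the others from 8.093. Each value is set against the other alcohol mice only. Controls went higher for Ddc (9.11 in control 5), Prlr (9.87 in control 2), Hdac6 (8.54 in control 8) and Trbv14 (10.3 in control 3). For the other genes named here the flagged value lay outside the control range.

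Of the list scores, mouse 1 was highest for monoamine synthesis at 0.1193 and for cholesterol and fatty acid synthesis at 0.1235. Mouse 8 was highest for glucocorticoid-responsive genes at 0.09717 and for splicing factors at 0.03452. The median signal was 128.2 in mouse 6 and 115.8 to 120.1 in the others, before normalization.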

How the results depend on the processing

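The count of probes at an adjusted p under 0.05 was 0 under every alternative run, including a threshold of 0.1 and each of the 19 fits without 1 mouse; the smallest adjusted p was then 0.149 without alcohol mouse 8, 0.670 without control 7 and 0.721 without alcohol mouse 4. The count at an unadjusted p under 0.05 was 573 on log2 signals, 601 after normexp background correction, 447 of 14869 probes with a strict filter, 584 with a trend and 633 with array weights. It was 1784 of 45281 probes without a filter and 880 without controls 2, 7 and 13, and ran from 443 to 734 without 1 mouse. With the replicate number as a block it was 1060, and 0 had an adjusted p under 0.05. Those numbers come from different mice: same-numbered mice correlated from -0.30 to 0.20 in their deviations, and 0 of 8 alcohol mice correlated best with their own number. For the difference between fractions the count at an adjusted p under 0.05 stayed at 0 under each alternative run, with a smallest adjusted p of 0.073 without control 2, and the unadjusted count ran from 1533 to 2904 without 1 mouse. The BeadChip as a block was not run, since the files used here name no BeadChip.

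Of 174 named genes, 14 changed sign under an alternative other than leaving out 1 mouse. Over all mice 13 of them stood between -0.070 and 0.048, and the other was Enpp2, at -0.51. Penk stood at -0.0039 on log2 signals, -0.026 after normexp, -0.0036 without a filter and -0.0047 without controls 2, 7 and 13. Alas2 stood at -0.022 after normexp and Hbb-b1 at -0.010 with array weights. With the replicate block Peg13 stood at 0.016, Pdyn at 0.083, Gfap at -0.065 and Mbp at 0.13. Without controls 2, 7 and 13 Enpp2 stood at 0.011, mt-Nd1 at -0.027, Kcnq1ot1 at 0.011, Pdyn at 0.021, Tsc22d3 at -0.041, Adh5 at 0.012, Dbp at -0.012, Gfap at -0.023, Mbp at 0.0044 and B2m at -0.00013. The causes were not tested.

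Without 1 mouse, 16 named genes changed sign, and 15 are given here. They ran from -0.0062 to 0.041 for Maob, -0.012 to 0.19 for Mag, -0.014 to 0.23 for Hba-a1, -0.017 to 0.043 for Alas2, -0.067 to 0.17 for Hbb-b1, -0.14 to 0.018 for mt-Nd4l, -0.11 to 0.012 for mt-Co2 and -0.042 to 0.0020 for Peg13. They ran from -0.049 to 0.025 for Penk, -0.13 to 0.10 for Pdyn, -0.033 to 0.012 for Fkbp5, -0.039 to 0.052 for Tsc22d3, -0.013 to 0.12 for Gfap, -0.090 to 0.077 for Mbp and -0.021 to 0.052 for B2m. The difference in detected probes ran from 146.5 to 274.03 and that in median signal from -1.04 to 0.73. Of 32 list medians, 14 changed sign under some alternative.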

Other observations

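Some genes outside the comparisons above also spread widely between mice of a group. Trh, the thyrotropin-releasing hormone precursor, ran from 8.84 to 11.23 in alcohol mice and from 8.47 to 11.42 in controls on the log2 scale. Ptgds, a prostaglandin D synthase of meninges and choroid plexus, ran from 10.57 to 12.11 and from 10.45 to 11.70. Trbv14 stood at 10.30 and 10.25 in controls 3 and 10 and at most at 8.48 in the other controls. Erdr1 ran from 11.70 to 13.05 and from 11.37 to 12.85.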
